A study of Mus musculus with 6 samples.

Results

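The BCL2 family genes described here are 10 genes that set the threshold for mitochondrial apoptosis: the guardians Bcl2, Bcl2l1 and Mcl1, the BH3-only genes Bcl2l11, Bmf, Pmaip1, Bbc3, Bid and Bad, and the effector Bak1. They were taken by gene symbol from the table of raw counts, which held all 10 of them among 25239 genes. RNA-seq was done on mouse embryonic stem cell-derived thyroid organoids in 3 groups of 2 libraries each, collected at day 31. All 3 groups came from a G4 RosaLuc line with the construct TRE-Nkx2-1-Pax8, which doxycycline switches on, and the construct bTg-NES-BrafV637E-ERT2, in which the bovine thyroglobulin promoter drives Braf V637E, fused to ERT2. This mouse mutation is the equivalent of BRAF V600E in human tumours. All groups received 1 µg/ml doxycycline for 5 days and then 8-Br-cAMP for 2 weeks. The sample titles name cAMP for all groups at day 31, and the methods also give it during the 4OHT and inhibitor treatments. The cAMP group carried the same transgenes and received no 4-hydroxytamoxifen (4OHT), with ethanol as vehicle according to the methods. The 4OHT group received 1 µM of 4OHT, which activates the fusion protein, for 5 days. The PD+LY group received 250 nM of the MEK inhibitor PD0325901 and 5 µM of the PI3K inhibitor LY204002 for 3 days together with 1 µM of 4OHT. The methods put inhibitor-treated organoids on 4OHT for 4 days before the inhibitors, which the labels of these libraries do not give, so that PD+LY may have had more days of 4OHT than the 4OHT group. No library had 1 inhibitor alone, so the effects of the 2 inhibitors and of the time on 4OHT cannot be told apart.

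Guardian proteins hold the effectors BAX and BAK in check at the outer mitochondrial membrane. BH3-only proteins bind the guardians, and some of them activate the effectors directly, so that the balance between both classes decides whether the membrane opens and caspases are switched on. In BRAF-mutant cells the MAPK pathway is known to act on several of these genes or their proteins, with BIM (from Bcl2l11) marked for degradation by ERK, while PI3K signaling keeps FOXO factors, which can transcribe Bcl2l11, Bbc3 and Bmf, out of the nucleus.

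The libraries held 14898409 to 20637959 counts, so that 1 count was worth 0.0486 to 0.0667 CPM (counts per 1000000 counts of the library). The transgene promoter is active in thyroid follicular cells, and the line was made from selected clones. The organoids were enriched for follicles but were not pure. All 10 thyroid markers had at least 3 counts in every library, with summed levels of 1105 and 1650 CPM in cAMP, 571 and 762 CPM in 4OHT, and 986 and 1977 CPM in PD+LY. All 10 mesenchymal markers were present too, and their sum was 1434 to 1594 CPM in cAMP, 2564 to 2712 CPM in 4OHT and 4410 to 5201 CPM in PD+LY. The 10 epithelial markers summed to 1131 to 1233, 869 to 968 and 810.4 to 855 CPM in the same order. The sums were between 4003 and 4579 CPM for pluripotency markers and between 203 and 235 CPM for endothelial markers. Of 10 pluripotency markers, 5 passed upwards and 3 downwards in PD+LY against cAMP, where 12.1% and 13.7% of all tested genes did. Neural progenitor markers summed to 164 and 146 CPM in cAMP, 136 and 136 CPM in 4OHT, and 107 and 119 CPM in PD+LY. Of 8 haematopoietic markers 2 had at least 3 counts in every library, and Ptprc, Adgre1 and Hbb-bs were below 3 counts in all of them. These 8 summed to 67.2 and 68.8 CPM in cAMP, 58.0 and 64.8 CPM in 4OHT, and 31.7 and 33.7 CPM in PD+LY. The part of these cell type markers in the results was not tested, and in such mixed samples a lower share of a cell type and less RNA per cell cannot be told apart.

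All 10 genes passed the filter on low counts. Counts were scaled to the library and divided by exon length (CPM per kb of exon) wherever levels of different genes were set side by side. Over the 6 libraries Mcl1 had the highest level, 114 CPM per kb, above 97.9% of the 14992 tested genes with a known length. Bak1 followed with 35.3 CPM per kb and Pmaip1 with 19.15 CPM per kb. Bcl2l1, Bmf and Bbc3 lay close together at 13.0, 12.6 and 12.5 CPM per kb, and Bid at 9.97, Bad at 6.25 and Bcl2l11 at 5.13 CPM per kb were lower. Bcl2 was the least abundant by far, with 0.357 CPM per kb, a level exceeded by most tested genes since only 10.9% were lower. The 3 uppermost places went to Mcl1, Bak1 and Pmaip1 in every group, and the lowest place to Bcl2.

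The middle of this order differed between groups. In cAMP, Bcl2l1, Bbc3, Bid and Bmf formed a run from 12.5 to 10.7 CPM per kb in which each gene's libraries overlapped those of its neighbour. In 4OHT, Bbc3 stood at 16.9 ± 0.638 CPM per kb (SD, n = 2) and its libraries overlapped those of Pmaip1 at 17.7 ± 1.29. In PD+LY, it was Bmf, at 16.2 ± 1.28 CPM per kb, whose libraries overlapped those of Pmaip1 at 16.8 ± 3.38, while Bbc3 had 8.88 ± 2.31 CPM per kb and overlapped with Bid and Bad.

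**Figure D1:**
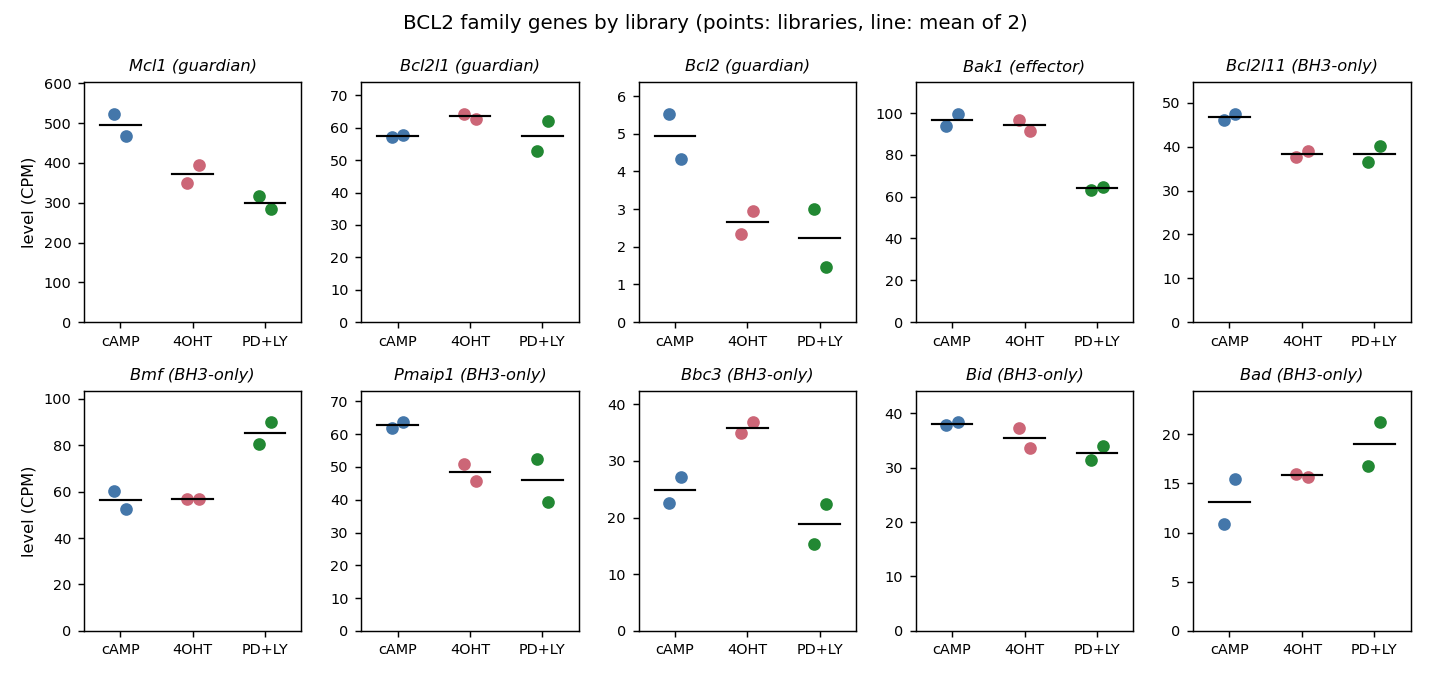
Level of each of the 10 genes in CPM (vertical axis, starting at 0 and scaled to each gene) in the 2 libraries of cAMP, 4OHT and PD+LY; points are libraries and lines are means. Mcl1 is lower in each successive group (means of 496, 373 and 299.7 CPM), Bmf is higher and Bak1 lower in PD+LY than in the other groups, and Bbc3 has its highest libraries in 4OHT.

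The first comparison, 4OHT against cAMP, addressed the transcripts after 4OHT, which activates Braf V637E. No library of a line without the Braf construct received 4OHT. Effects of 4OHT itself and of active Braf V637E therefore cannot be told apart in it. Of the 10 genes 1 passed edgeR's quasi-likelihood test at an adjusted p under 0.05 (Benjamini-Hochberg), which was Mcl1, and it was lower in 4OHT. Among all 15256 tested genes 8.39% passed, so that 1 of 10 is near the background (4.04% passed upwards and 4.35% downwards). At an unadjusted p under 0.05 there were 4 lower genes (Mcl1, Bcl2, Bcl2l11 and Pmaip1) and 1 higher gene (Bbc3). The share of all tested genes at an unadjusted p is not given here, so counts at that p have no background. DESeq2 also called 1 lower and 0 higher at an adjusted p under 0.05. The libraries of both groups did not overlap for 8 of the 10 genes, against 58.5% of all tested genes. The median log2 fold change of the 10 genes was -0.07, beside -0.002 for all tested genes, and none passed the test and reached 2-fold, which 2.67% of the tested genes did.

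The second comparison, PD+LY against 4OHT, addressed the effect of the inhibitors on Braf V637E organoids. Here 4 of the 10 genes passed the same test, Bmf upwards and Bbc3, Bak1 and Mcl1 downwards. The background was 22.7% of all tested genes, 10.7% upwards and 12.1% downwards. The libraries did not overlap for 6 of the 10 genes, against 62.3% of all tested genes, and no gene of the 10 passed and reached 2-fold (7.26% of the tested genes did). The median log2 fold change was -0.13, beside 0.008 for all tested genes.

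The third comparison set PD+LY against cAMP, organoids never exposed to 4OHT. Of the 10 genes 5 passed, Bmf upwards and Mcl1, Bak1, Bcl2 and Pmaip1 downwards, on a background of 25.7% of all tested genes, 12.1% upwards and 13.7% downwards. Bcl2 alone passed and reached 2-fold, against 9.24% of all tested genes. The libraries did not overlap for 9 of the 10 genes, against 61.4%, and the median log2 fold change was -0.34, beside 0.005. These comparisons share libraries pairwise, so their counts are not independent of each other. According to the methods, RNA-seq was done in duplicates with several wells pooled for each condition, so the spread between wells is not seen. The labels do not say whether the 2 libraries of a group came from separate cultures. The p-values therefore measure the spread between these libraries, which may be technical. With 2 libraries against 2, an exact two-sided permutation test of a single gene cannot go below p = 0.3333, and the tests rest on the spread estimated across all genes.

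**Figure D2:**
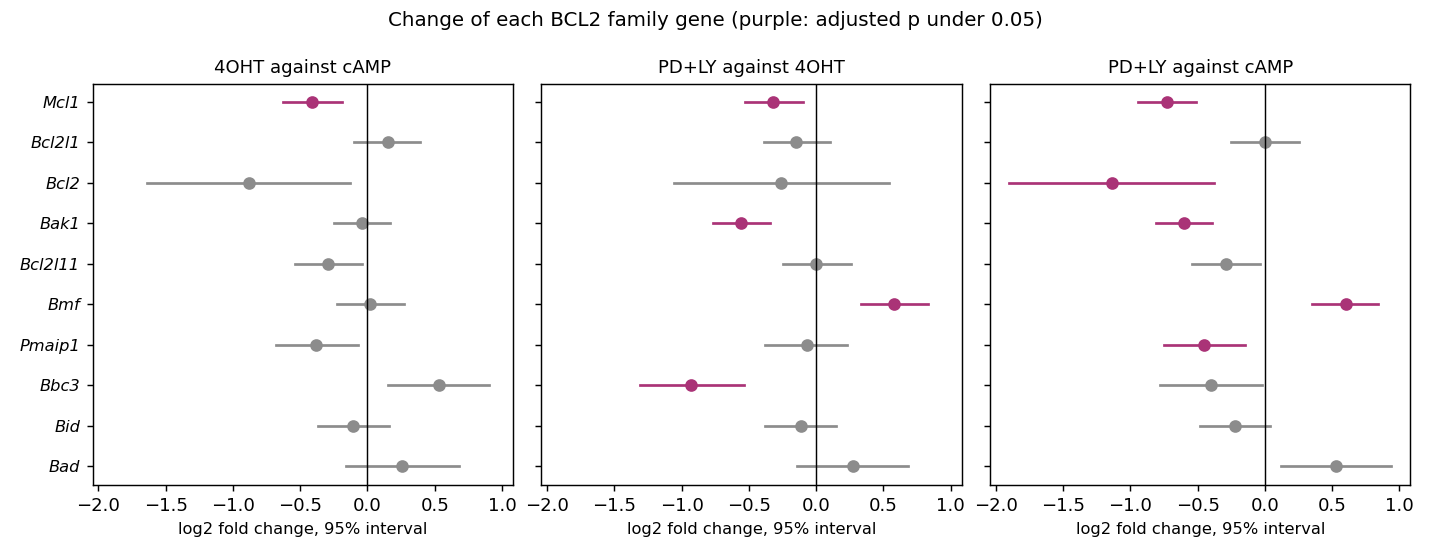
log2 fold change (horizontal axis) of each of the 10 genes in the 3 comparisons, with the 95% interval derived from the edgeR test as a line and genes with an adjusted p under 0.05 in purple. Mcl1 lies below 0 in all 3 panels, Bmf lies at 0.02 in the first and at 0.58 and 0.60 in the others, and the intervals of Bcl2, the gene with the fewest counts, are the widest.

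Among the guardians, Mcl1 (GRCm38 chr3:95658788-95663176, plus strand) encodes a short-lived guardian that binds BAK and most BH3-only proteins. It had 524 and 468 CPM in cAMP, 350.5 and 395 CPM in 4OHT, and 316 and 283 CPM in PD+LY. Each group lay wholly below the one before it. Mcl1 fell by 0.41 on the log2 scale in 4OHT against cAMP (SE 0.10, adjusted p = 0.0257) and fell by a further 0.32 from 4OHT to PD+LY (SE 0.10, adjusted p = 0.0405). From cAMP to PD+LY it fell by 0.73 (SE 0.10, adjusted p = 0.00029), equal to a change of -39.6%.

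The overall fall of Mcl1 passed under all 6 alternative settings tried and without any single library, but both steps depended on single libraries. The log2 fold change of 4OHT against cAMP was -0.33 without cAMP replicate 1 (adjusted p = 0.214), -0.32 without 4OHT replicate 1 (adjusted p = 0.296) and -0.50 without 4OHT replicate 2 (adjusted p = 0.0961). That of PD+LY against 4OHT was -0.31 without cAMP replicate 2 (adjusted p = 0.0507), -0.40 without 4OHT replicate 1 (adjusted p = 0.0804), -0.22 without 4OHT replicate 2 (adjusted p = 0.338) and -0.24 without PD+LY replicate 2 (adjusted p = 0.108). The second step also missed the threshold with only the 2 groups compared (-0.31, adjusted p = 0.0512). The library with the higher thyroid marker sum had the higher Mcl1 level in 3 of 3 groups. The same held in 3 of 3 groups for Bcl2, in 2 for Bmf, in 1 each for Bcl2l11, Pmaip1 and Bbc3, and in 0 for Bcl2l1, Bid, Bad and Bak1. The part of follicular cell content in the values of Mcl1 was not tested.

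Bcl2l1 (chr2:152780668-152831728, minus strand), whose main product BCL-XL is a guardian with a longer life than MCL1, had the smallest log2 differences of the 3 guardians. Its levels were 57.2 and 57.7 CPM in cAMP, 64.4 and 62.7 CPM in 4OHT, and 52.9 and 62.0 CPM in PD+LY. The 4OHT libraries were the highest, by a small margin over PD+LY replicate 2. The log2 difference was 0.15 in 4OHT against cAMP (95% interval -0.10 to 0.39, adjusted p = 0.476), -0.15 in PD+LY against 4OHT (-0.39 to 0.10, adjusted p = 0.376) and 0.00 in PD+LY against cAMP (-0.25 to 0.25, adjusted p = 0.998). Gene counts do not separate its long, protective splice form from the short, death-promoting one.

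Bcl2 (chr1:106538178-106714274, minus strand), the founding guardian of the family, was scarce. It had 88 and 89 counts in cAMP, 35 and 54 in 4OHT, and 59 and 30 in PD+LY, equal to 5.53 and 4.34 CPM, 2.34 and 2.96 CPM, and 3.01 and 1.46 CPM. Both cAMP libraries were above all others, while the PD+LY libraries lay on either side of 4OHT. Bcl2 fell by 1.14 on the log2 scale from cAMP to PD+LY (SE 0.35, adjusted p = 0.0307). The log2 fold change of -0.88 in 4OHT against cAMP (SE 0.35, 95% interval -1.64 to -0.13) did not pass (adjusted p = 0.144). Without cAMP replicate 1 the difference between PD+LY and cAMP was -0.96 (adjusted p = 0.14), without PD+LY replicate 2 it was -0.71 (adjusted p = 0.145), and without PD+LY replicate 1 it was -1.75. With only the 2 groups compared it was -1.13 and missed the threshold (adjusted p = 0.0523). Bcl2 belongs to the study's own list for an enhanced thyroid differentiation score, and, like that of Mcl1, its level was the higher one in the library with the higher thyroid marker sum in 3 of 3 groups. The part of follicular cell content in its fall was not tested.

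Among the BH3-only genes, Bmf (chr2:118528757-118549687, minus strand), whose product is held at the cytoskeleton by dynein light chain until released, was the 1 gene of the 10 that passed upwards under the inhibitors. It had 60.2 and 52.3 CPM in cAMP, 56.9 and 57.0 CPM in 4OHT, and 80.4 and 89.9 CPM in PD+LY. Both PD+LY libraries were above all 4 others, and the 4OHT libraries lay within the range of cAMP. Bmf was 1.49-fold higher in PD+LY than in 4OHT (log2 fold change 0.58, SE 0.11, adjusted p = 0.00372) and 1.51-fold higher than in cAMP (0.60, SE 0.11, adjusted p = 0.00239). Between 4OHT and cAMP the log2 difference was 0.02, with a 95% interval of -0.23 to 0.27 (adjusted p = 0.939). The rise over 4OHT missed the threshold without 4OHT replicate 2 (0.58, adjusted p = 0.0539) and passed without each of the others. Of the dynein light chain genes, Dynll1 was higher in PD+LY, by 0.56 against 4OHT (adjusted p = 0.00194) and by 0.52 against cAMP (adjusted p = 0.00249). Dynll2 differed by 0.13 (adjusted p = 0.322) and 0.08 (adjusted p = 0.572) and did not pass. Which of these light chains binds the BMF protein was not tested.

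Bbc3 (chr7:16308393-16318205, plus strand) encodes PUMA, a BH3-only protein that binds all guardians and is a well-known p53 target. Its levels were 22.5 and 27.2 CPM in cAMP, 34.9 and 36.8 CPM in 4OHT, and 15.4 and 22.3 CPM in PD+LY. Both 4OHT libraries were above all 4 others, and the PD+LY libraries were below those of cAMP by a narrow margin. From 4OHT to PD+LY, Bbc3 fell by 0.93 on the log2 scale (SE 0.17, adjusted p = 0.00312), a change of -47.4%, and this call held under all 6 alternative settings and without any single library. The log2 fold change of 0.53 in 4OHT against cAMP (SE 0.17, 95% interval 0.15 to 0.90) did not pass (adjusted p = 0.0852). The same value passed without PD+LY replicate 1 (adjusted p = 0.0146) and without PD+LY replicate 2 (adjusted p = 0.0155), libraries that enter this comparison through the spread alone. Against cAMP, PD+LY differed by -0.40 (SE 0.18, adjusted p = 0.117), and without PD+LY replicate 2 it was -0.69 and passed (adjusted p = 0.0093). It was smaller without PD+LY replicate 1 (-0.16, adjusted p = 0.479) and without cAMP replicate 2 (-0.25, adjusted p = 0.483).

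Bcl2l11 (chr2:128126038-128162547, plus strand) encodes BIM, an activator BH3-only protein known for its control by ERK. It had 46.2 and 47.6 CPM in cAMP, 37.6 and 39.1 CPM in 4OHT, and 36.6 and 40.3 CPM in PD+LY. The cAMP libraries were above the other 4, and those of 4OHT lay within the range of PD+LY. Between PD+LY and 4OHT the log2 difference was 0.00, with a 95% interval of -0.25 to 0.26 (adjusted p = 0.99), so that a transcript change beyond these bounds was not seen while Bmf rose. The log2 fold change against cAMP was -0.29 both in 4OHT (SE 0.12, adjusted p = 0.152) and in PD+LY (SE 0.12, adjusted p = 0.0895), short of the threshold, which the latter value just passed with the replicate number as a block (adjusted p = 0.0499). The BIM protein itself was not measured in these libraries.

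The promoter windows of Bcl2l11, Bbc3 and Bmf are shown because all 3 are known as possible FOXO targets and because their transcripts moved differently under the inhibitors. RefSeq sequence of GRCm38.p6 was matched by symbol for 9 of the 10 genes, with 17 windows from 250 bases before to 50 bases after an annotated start. They were searched on both strands for GTAAACA (FOXO core, read as TGTTTAC on the other strand), TGACGTCA (CRE), TGACTCA (AP-1) and CACGTG (E-box). The FOXO core was found in 2 of the 17 windows, 1 of Bcl2l11 and 1 of Bbc3, and in 3.65% of all 32851 promoter windows. CACGTG was found in 1 window, of Bbc3 (7.15% of all windows). TGACGTCA (1.79% of all windows) and TGACTCA (5.2%) were found in none of the 17. The 250 bases before the start are printed 5′ to 3′ on the strand of the gene, with the FOXO core in capitals. In Bcl2l11 (chr2:128125788-128126037, plus strand) it begins 227 bases before the start, in Bbc3 (chr7:16310011-16310260, plus strand, inside the gene before an internal start) 167 bases before it, and the window of the longest Bmf transcript (chr2:118549687-118549936, minus strand) held none of the 4 motifs.
Bcl2l11: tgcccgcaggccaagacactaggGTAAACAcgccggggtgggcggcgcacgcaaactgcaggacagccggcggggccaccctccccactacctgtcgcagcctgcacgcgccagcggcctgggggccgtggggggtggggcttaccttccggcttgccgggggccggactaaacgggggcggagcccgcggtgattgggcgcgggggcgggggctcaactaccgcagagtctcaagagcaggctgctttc
Bbc3: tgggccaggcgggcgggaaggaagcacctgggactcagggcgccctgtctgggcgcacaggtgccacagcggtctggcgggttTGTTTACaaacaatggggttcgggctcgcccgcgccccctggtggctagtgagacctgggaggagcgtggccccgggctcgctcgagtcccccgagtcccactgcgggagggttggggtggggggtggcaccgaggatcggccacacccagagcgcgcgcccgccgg
Bmf: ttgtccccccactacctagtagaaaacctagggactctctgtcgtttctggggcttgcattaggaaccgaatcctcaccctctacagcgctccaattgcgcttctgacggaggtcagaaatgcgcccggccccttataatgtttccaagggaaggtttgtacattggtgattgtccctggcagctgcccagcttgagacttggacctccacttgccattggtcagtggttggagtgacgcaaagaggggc
A match of letters is a description, not a binding site, and its absence from a window says no more than that these letters are not there. From 4OHT to PD+LY the log2 fold changes of Bcl2l11, Bbc3 and Bmf were 0.00, -0.93 and 0.58. The FOXO genes themselves did not pass in that comparison, with log2 fold changes of 0.09 for Foxo1, 0.20 for Foxo3 and -0.12 for Foxo4.

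Pmaip1 (chr18:66458533-66465565, plus strand) encodes NOXA, which binds MCL1 preferentially. It had 61.8 and 63.6 CPM in cAMP, 50.8 and 45.9 CPM in 4OHT, and 52.5 and 39.4 CPM in PD+LY. Both cAMP libraries were above the others, and PD+LY spanned the 4OHT libraries. Pmaip1 fell by 0.45 on the log2 scale in PD+LY against cAMP (SE 0.14, adjusted p = 0.0323). This call was lost without 5 of the 6 libraries, with values of -0.47 without cAMP replicate 1 (adjusted p = 0.0851), -0.42 without cAMP replicate 2 (adjusted p = 0.139), -0.44 without 4OHT replicate 1 (adjusted p = 0.0631), -0.44 without 4OHT replicate 2 (adjusted p = 0.0614) and -0.26 without PD+LY replicate 2 (adjusted p = 0.134). It was also lost with only the 2 groups compared (-0.44, adjusted p = 0.0692). Between 4OHT and cAMP the log2 difference was -0.38 (SE 0.14, adjusted p = 0.123), and it passed without PD+LY replicate 1 (adjusted p = 0.0215) or PD+LY replicate 2 (adjusted p = 0.0217). Between PD+LY and 4OHT it was -0.07 (adjusted p = 0.741).

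Bid (chr6:120891930-120916853, minus strand) encodes the BH3-only protein that caspase 8 cuts to link death receptors to mitochondria, and it passed in no comparison. It had 37.9 and 38.4 CPM in cAMP, 37.2 and 33.6 CPM in 4OHT, and 31.5 and 33.9 CPM in PD+LY. The cAMP libraries were slightly above the others, and 4OHT and PD+LY overlapped. The log2 fold changes of -0.11, -0.11 and -0.22 in the 3 comparisons, in the order used above, did not pass (adjusted p = 0.639, 0.538 and 0.206). On the opposite strand, exons of Bcl2l13 cover 17.7% of the exon bases of Bid. Since reads were counted without strand, reads in such stretches cannot be assigned to either gene. The exon lengths behind CPM per kb include them, so the levels per kb of Bid, Bad and Bak1 may be too low. Bcl2l13 itself had 105 to 118 CPM with log2 fold changes between -0.09 and -0.02.

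Bad (chr19:6941861-6951899, plus strand), whose protein is inactivated by phosphorylation through AKT and ERK-driven kinases, had 10.8 and 15.4 CPM in cAMP, 15.9 and 15.7 CPM in 4OHT, and 16.8 and 21.2 CPM in PD+LY. The 3 groups were ordered upwards without overlap, but the cAMP libraries differed much from each other. The log2 fold change was 0.26 in 4OHT against cAMP (adjusted p = 0.446), 0.27 in PD+LY against 4OHT (adjusted p = 0.332) and 0.53 in PD+LY against cAMP (SE 0.19, adjusted p = 0.0598). The last value passed without cAMP replicate 2 (0.82, adjusted p = 0.0228) and without PD+LY replicate 1 (0.68, adjusted p = 0.0219), and was smaller without cAMP replicate 1 (0.30, adjusted p = 0.371) and without PD+LY replicate 2 (0.35, adjusted p = 0.236). Exons of Gpr137 on the opposite strand cover 20.5% of the exon bases of Bad, and Gpr137 rose by 0.74 in PD+LY against cAMP (adjusted p = 0.0191). The part of these shared bases in the values of Bad was not tested.

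The effector Bak1 (chr17:27019810-27029009, minus strand) encodes BAK, which forms pores in the outer mitochondrial membrane. It had 93.8 and 99.7 CPM in cAMP, 96.6 and 91.6 CPM in 4OHT, and 63.3 and 64.5 CPM in PD+LY. The PD+LY libraries were close to each other and far below the other 4, which overlapped. Bak1 fell by 0.56 on the log2 scale from 4OHT to PD+LY (SE 0.10, adjusted p = 0.00195) and fell by 0.60 against cAMP (SE 0.10, adjusted p = 0.000935), changes of -32.1% and -34.0%. Both calls held under all 6 alternative settings and without any single library. Between 4OHT and cAMP the log2 difference was -0.04, with a 95% interval of -0.25 to 0.17 (adjusted p = 0.84). Ggnbp1 on the opposite strand, listed under 2 gene models, covers 18.2% and 7.35% of the exon bases of Bak1 and had 4.02 to 8.78 CPM. Levels of the epithelial markers also fell, with 7 of 10 passing downwards and 1 upwards in PD+LY against 4OHT, and 9 of 10 downwards against cAMP. In 4OHT against cAMP, where the Bak1 difference was -0.04, 3 of the 10 markers passed downwards and 0 upwards. The shares of all tested genes passing downwards were 12.1%, 13.7% and 4.35%, in the order of these comparisons. The part of the epithelial markers in the fall of Bak1 was not tested.

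Summed by role, guardians made up a smaller and BH3-only genes a larger share of the joint transcripts of the 10 genes (CPM per kb) in PD+LY than in cAMP. The guardian share was 61.5% and 57.6% in cAMP, 52.1% and 55.6% in 4OHT, and 54.2% and 51.3% in PD+LY, with means of 59.5% ± 2.71, 53.8% ± 2.47 and 52.8% ± 2.10 (SD, n = 2 in each group). The BH3-only share was 24.1% and 26.4%, 30.0% and 28.1%, and 32.1% and 34.5% in the same order. The BH3-only shares were ordered by group without overlap, whereas the guardian shares of 4OHT and PD+LY overlapped. The sum of the BH3-only genes was 67.1 ± 2.46, 66.4 ± 1.31 and 63.3 ± 2.24 CPM per kb, and that of the guardians 158 ± 11.6, 123 ± 9.02 and 100.4 ± 5.56 CPM per kb. The BH3-only share was thus larger in PD+LY while its sum was not higher. Most of the guardian sum was Mcl1, with means of 145, 109 and 87.7 CPM per kb in cAMP, 4OHT and PD+LY. Bcl2l1 had means of 12.5, 13.9 and 12.5 CPM per kb. These shares are a description and were not tested.

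**Figure D3:**
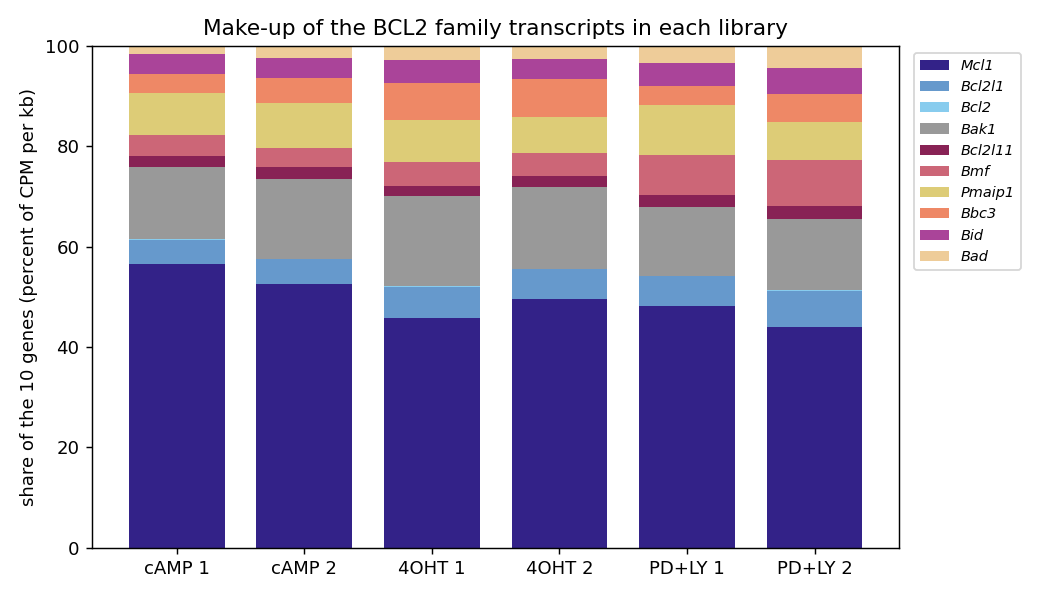
Share of each of the 10 genes in their joint transcripts (vertical axis, percent of CPM per kb of exon, from 0 to 100) in each of the 6 libraries, stacked in the order of the legend. The mean share of Mcl1 is 54.6% (cAMP), 47.7% (4OHT) and 46.0% (PD+LY), Bmf widens from 4.03% and 4.75% to 8.52%, and Bbc3 is widest in 4OHT (7.38%).

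Within the BH3-only genes, the order of Bbc3 and Bmf differed between 4OHT and PD+LY. The level of Bbc3 per kb was 92.5% and 128% of that of Bmf in cAMP, 152% and 159.6% in 4OHT, and 47.3% and 61.4% in PD+LY. The 3 groups did not overlap. Relative to Mcl1, Bmf stood at 7.48% and 7.28% in cAMP, 10.6% and 9.40% in 4OHT, and 16.5% and 20.7% in PD+LY, again without overlap. These ratios combine the values already given and carry no test of their own.

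Of 15 other BCL2 family genes, 11 could be tested, and Bcl2a1a, Bcl2a1b, Bcl2a1d and Bcl2l10 had at most 4 counts in any library. By edgeR 1 rose and 1 fell from cAMP to 4OHT, 0 rose and 4 fell from 4OHT to PD+LY, and 3 rose and 3 fell from cAMP to PD+LY, with list medians of 0.01, 0.03 and -0.02. Of all tested genes 4.04%, 10.7% and 12.1% passed upwards and 4.35%, 12.1% and 13.7% downwards, in the same order. DESeq2 also found 0 higher genes in PD+LY against 4OHT, and 1 was higher at an unadjusted p under 0.05. Bik, a BH3-only gene, had 4.21 and 4.24 CPM in cAMP, 10.9 and 9.22 CPM in 4OHT, and 12.2 and 14.1 CPM in PD+LY. It rose by 1.24 on the log2 scale in 4OHT against cAMP (SE 0.20, adjusted p = 0.00353) and stood 1.63 above cAMP in PD+LY (SE 0.20, adjusted p = 0.000117), larger changes than those of any of the 6 BH3-only genes above.

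Hrk, another BH3-only gene, had 4.59 and 4.73 CPM in cAMP, 3.60 and 3.84 CPM in 4OHT, and 0.968 and 0.924 CPM in PD+LY. It fell by 1.97 on the log2 scale against 4OHT (SE 0.31, adjusted p = 0.000989) and fell by 2.29 against cAMP (SE 0.30, adjusted p = 0.000219). Bok, an effector relative, fell by 0.73 against 4OHT (adjusted p = 0.0322) and fell by 0.71 against cAMP (adjusted p = 0.0302). Bnip3, a mitochondrial relative with a part in mitophagy and hypoxia, fell by 0.66 in 4OHT against cAMP (adjusted p = 0.00588) and fell by 1.02 in PD+LY against cAMP (adjusted p = 8.09e-05).

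Bax, the effector partner of Bak1, went the other way from it. It had 162 and 164 CPM in cAMP, 177 and 171 CPM in 4OHT, and 184 and 212 CPM in PD+LY, each group above the one before. Its log2 fold change in PD+LY against cAMP was 0.28 (SE 0.10, adjusted p = 0.0483), and 0.19 against 4OHT did not pass (adjusted p = 0.169). The guardian Bcl2l2, which encodes BCL-W, had 50.4 and 51.5 CPM in 4OHT and 40.8 and 38.4 CPM in PD+LY, a fall of 0.36 (SE 0.11, adjusted p = 0.0353), and differed from cAMP in PD+LY by -0.02. Bcl2l14 rose by 0.84 in PD+LY against cAMP (adjusted p = 0.00706).

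Downstream of the mitochondria, none of 12 apoptosome and caspase genes passed in 4OHT against cAMP by edgeR or DESeq2, and 1 was lower at an unadjusted p under 0.05. Apaf1 and Casp9, the scaffold and initiator of the apoptosome, differed by 0.28 (adjusted p = 0.112) and 0.14 (adjusted p = 0.453) in PD+LY against 4OHT.

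Of the inhibitor of apoptosis proteins 5 of 6 genes were tested and 0 passed in any comparison by edgeR or DESeq2. Between PD+LY and 4OHT, 2 were higher and 1 lower at an unadjusted p under 0.05. Birc5 (survivin) had a log2 fold change of -0.28 there (adjusted p = 0.0501) and Xiap of 0.52 (adjusted p = 0.0954), with Xiap at 91.3 CPM in PD+LY replicate 1 and 51.2 CPM in PD+LY replicate 2. Of the death receptor genes 9 of 11 were tested and 0 passed by either tool, with 2 higher in PD+LY against 4OHT at an unadjusted p under 0.05. The list medians in that comparison were 0.11 for inhibitor of apoptosis proteins and -0.01 for death receptors.

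**Figure D4:**
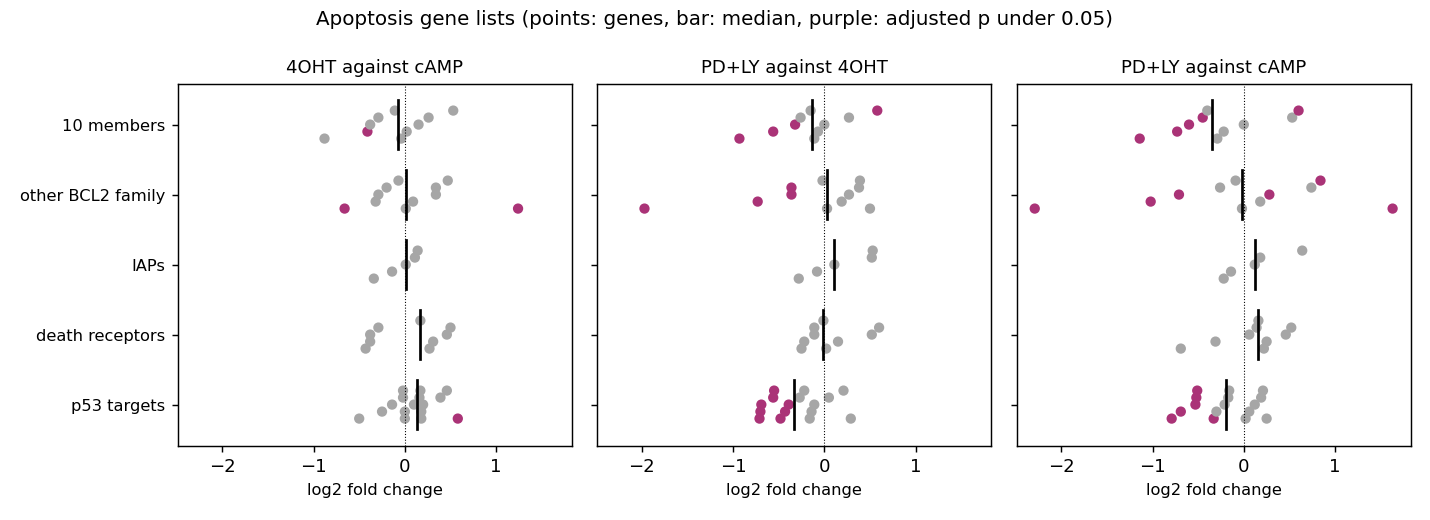
log2 fold change (horizontal axis) of the 10 members and of the tested genes of 4 further lists in the 3 comparisons; points are genes, the bar is the list median and purple marks an adjusted p under 0.05. In PD+LY against 4OHT the 16 p53 targets have a median of -0.33 with 8 genes passing downwards (12.1% of all tested genes did). Death receptors and inhibitors of apoptosis hold no purple points in any panel.

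Among 15 tested regulators of the family, the stress factor Ddit3 (CHOP) had 27.3 and 29.3 CPM in cAMP, 42.2 and 45.7 CPM in 4OHT, and 19.4 and 16.9 CPM in PD+LY, the same order of groups as Bbc3. It rose by 0.63 in 4OHT against cAMP (SE 0.13, adjusted p = 0.0124) and fell by 1.28 from 4OHT to PD+LY (SE 0.13, adjusted p = 6.87e-05). Its upstream factor Atf4 fell by 1.11 over the same step (SE 0.09, adjusted p = 1.36e-05). From 4OHT to PD+LY 3 regulators rose (Dynll1, Trp53 and Fbxw7) and 2 fell, beside 10.7% and 12.1% of all tested genes. From cAMP to PD+LY 3 rose (Dynll1, E2f1 and Trp53) and 4 fell (Trp73, Atf4, Ddit3 and Foxo4), beside 12.1% and 13.7%. Trp53 was 0.50 higher than in 4OHT (adjusted p = 0.00715), and Fbxw7, which encodes a ubiquitin ligase subunit that targets MCL1, was 0.40 higher (adjusted p = 0.0411).

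Of 16 p53 targets outside the family 1 rose in 4OHT against cAMP, which was Cdkn1a, the gene of the cell cycle inhibitor p21 (0.58, SE 0.11, adjusted p = 0.0067). Of all tested genes 4.04% passed upwards and 4.35% downwards in 4OHT against cAMP. From 4OHT to PD+LY 8 p53 targets fell and 0 rose by edgeR, DESeq2 or an unadjusted p under 0.05. They were led by Phlda3 (-0.71), Plk2 (-0.70), Eda2r (-0.69) and Cdkn1a (-0.56), while Mdm2 had 0.05 (adjusted p = 0.728). Compared with cAMP 6 fell in PD+LY, led by Zmat3 (-0.79), Eda2r (-0.69), Plk2 (-0.53) and Btg2 (-0.52). By edgeR, 12.1% of all tested genes passed downwards from 4OHT to PD+LY and 13.7% from cAMP to PD+LY. ERK output genes served as a check of the MEK inhibitor, and no such check is given here for the PI3K inhibitor. In PD+LY against 4OHT, 13 of 15 ERK output genes fell, with Spry4 at -6.33, Etv4 at -6.18, Dusp4 at -3.92 and Egr1 at -3.32. Of these 15, 2 rose in 4OHT against cAMP (Etv4 and Ier3) and 4 fell (Dusp6, Spry1, Etv5 and Spred2).

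As a description with no test, the genes whose log2 CPM followed the members most closely over the 6 libraries were sought among the 12224 genes averaging 50 counts or more. The nearest by Pearson's r were Tardbp for Mcl1 (0.997), Abracl for Bcl2 (0.997), Inpp5k for Bmf (0.995), Pmf1 for Bbc3 (0.995), Gm20300 for Pmaip1 (0.993) and Arhgap8 for Bak1 (0.998). The libraries of a group share their treatment, so these values say nothing of shared function or control.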

How the data were processed

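RNA from 6 organoid samples was sequenced from stranded mRNA libraries. According to the submitters' processing notes and the methods, the authors trimmed reads with Trimmomatic, aligned them to mm10 with HISAT2 and counted them per gene with HTSeq without strand (versions not given in the sources used here), and the deposited values are raw counts. The deposited totals were 14898409 to 20637959 counts per library.

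Counts were analysed in R 4.3.3 with edgeR 4.0.16 (filterByExpr with a minimum count of 10 and a minimum total of 15, TMM, 1 quasi-likelihood model of the 3 groups over all 6 libraries). This left 15256 genes, over which p-values were adjusted by Benjamini-Hochberg, and a gene passed at an adjusted p under 0.05. A 2-fold change was the further threshold of the study, which used DESeq2. Exon lengths and positions came from a GRCm38 annotation. The script was tested on simulated data. The 10 members and all gene lists were chosen with earlier results of these data known. All 10 members are named, and from each other list up to 4 passing genes per direction with the largest changes and a mean of at least 20 counts, with a few textbook genes whatever their result. Alternatives were RLE size factors, DESeq2 1.42.0, no filter, a filter of at least 10 counts per library, a block for the replicate number, a fit of just the 2 groups compared, and leaving out each library. Some results are not reported here.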

Additional observations from a re-analysis of the deposited data

How the results depend on the processing

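Of the log2 fold changes of the 10 genes, 161 values under other settings and 147 with 1 library left out kept direction and side of the threshold, while 3 and 15 lost the call, 11 and 7 gained it, and 5 and 11 changed sign. The count of members passing in 4OHT against cAMP, 1, became 4 without a filter, 3 with only the 2 groups compared, 3 with the replicate block, 0 with the 2-fold threshold and 0 to 3 with 1 library left out (0 without cAMP replicate 1 or either 4OHT library). For PD+LY against 4OHT the count of 4 became 0 with the 2-fold threshold and 2 to 4 with 1 library left out (2 without 4OHT replicate 2). For PD+LY against cAMP the count of 5 became 3 with only the 2 groups compared, 8 with the replicate block, 1 with the 2-fold threshold and 3 to 6 with 1 library left out (3 without cAMP replicate 1). For the other gene lists, the count of 10 in 4OHT against cAMP became 16 without a filter, 21 with only the 2 groups compared, 20 with the replicate block and 0 to 19 with 1 library left out (0 without 4OHT replicate 1, 2 without 4OHT replicate 2). Their count of 32 in PD+LY against 4OHT became 17 to 34 with 1 library left out (17 without 4OHT replicate 2). Their count of 34 in PD+LY against cAMP became 23 to 35. The cause of these shifts was not tested.

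The replicate numbers are names only, since the labels tie them to nothing, and same-numbered libraries deviated together with a correlation of 0.072 (cAMP and 4OHT), 0.207 (cAMP and PD+LY) and 0.059 (4OHT and PD+LY). With the replicate block, Bbc3 passed in 4OHT against cAMP (0.53, adjusted p = 0.00982) and in PD+LY against cAMP (-0.41, adjusted p = 0.0273), as did Pmaip1 in the former (-0.38, adjusted p = 0.032) and Bad (0.54, adjusted p = 0.0131) and Bcl2l11 (-0.29, adjusted p = 0.0499) in the latter.

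No value that changed sign was past the threshold. With 1 library left out, Bmf ranged from -0.07 to 0.12 and Bak1 from -0.09 to 0.01 in 4OHT against cAMP, both lowest or highest without a cAMP library. Ranges in PD+LY against 4OHT were -0.86 to 0.18 for Bcl2, -0.07 to 0.07 for Bcl2l11 and -0.29 to 0.12 for Pmaip1, with the ends set by leaving out 1 PD+LY library or the other. Bcl2l11 was also -0.01 with at least 10 counts in every library. Bcl2l1 in PD+LY against cAMP moved around 0, with 0.00 for RLE size factors and DESeq2, 0.01 without a filter or with only the 2 groups compared, and -0.12 to 0.11 with 1 library left out. Depth limits Bcl2 most, with 30 to 89 counts per library.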
